A study of Mus musculus with 9 samples.

Results

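A set of 10 activity-dependent and cAMP-responsive genes were followed in mouse retina across 3 groups of 3 RNA-seq libraries. They are the EGR genes Egr1, Egr2, Egr3 and Egr4, the NR4A genes Nr4a1, Nr4a2 and Nr4a3, and Sik1, Crem and Dusp1. All 10 were found by gene symbol among the 55414 genes of the count table, 1 row each. They were chosen by their measured levels in these libraries, in that several were higher in A74 than in light damage libraries. The comparison of A74 with light damage is therefore given for them as a description without a test. Retinas came from albino Balb/c mice in a model in which light damages photoreceptors. The A74 group had light damage and A74, the light damage group had the light damage model without A74, and the control group is labelled control only. P2RX7, a channel opened by extracellular ATP, is named in the series title as the inhibited protein. The labels do not say what A74 is, nor its dose, vehicle or timing, nor the duration of light or the time of dissection, age and sex of the mice. Whether each replicate is a different mouse is not stated either, so the p-values cover the spread between these libraries and no more is known of its source from the labels.

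EGR proteins are zinc-finger transcription factors, and NR4A proteins are nuclear receptors without a known physiological ligand. Both families are immediate-early genes, transcribed within minutes of a stimulus without new protein synthesis. In neurons they are switched on through calcium, through the ERK kinases acting on serum response factor at CArG boxes, and through cAMP and protein kinase A acting on CREB at cAMP response elements (CREs). Sik1, Crem and Dusp1 act in feedback. The SIK1 kinase holds the CREB coactivators of the CRTC family in the cytoplasm, one set of CREM transcripts encodes the repressor ICER, and the DUSP1 phosphatase inactivates MAP kinases. In the retina Egr1 is known for its response to light and to visual blur, and Nr4a2 for its part in forming a class of amacrine cells.

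Promoter sequences are shown for the NR4A genes and Dusp1, whose windows in the RefSeq reference held the most copies of the CRE core among the genes with a window used. The windows are from RefSeq on GRCm38, run 5′ to 3′ on the strand of the gene from 250 bases before the annotated start to 50 bases after it, and hold chr4:48045055-48045354 (plus strand), chr15:101266596-101266895 (plus strand), chr2:57123954-57124253 (minus strand) and chr17:26508423-26508722 (minus strand). Capitals mark the CRE core TGACG on either strand.
Nr4a3: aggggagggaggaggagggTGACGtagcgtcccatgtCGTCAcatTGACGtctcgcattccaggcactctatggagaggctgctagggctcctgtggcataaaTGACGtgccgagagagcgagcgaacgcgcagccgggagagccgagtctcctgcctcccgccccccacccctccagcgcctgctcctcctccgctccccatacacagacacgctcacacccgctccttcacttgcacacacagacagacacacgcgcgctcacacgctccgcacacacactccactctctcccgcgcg
Nr4a1: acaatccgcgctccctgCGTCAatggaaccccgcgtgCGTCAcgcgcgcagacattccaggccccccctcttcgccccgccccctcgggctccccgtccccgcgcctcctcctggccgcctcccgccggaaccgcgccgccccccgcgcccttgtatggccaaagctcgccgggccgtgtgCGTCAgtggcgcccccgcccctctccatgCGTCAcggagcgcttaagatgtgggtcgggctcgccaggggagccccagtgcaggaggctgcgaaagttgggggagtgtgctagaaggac
Nr4a2: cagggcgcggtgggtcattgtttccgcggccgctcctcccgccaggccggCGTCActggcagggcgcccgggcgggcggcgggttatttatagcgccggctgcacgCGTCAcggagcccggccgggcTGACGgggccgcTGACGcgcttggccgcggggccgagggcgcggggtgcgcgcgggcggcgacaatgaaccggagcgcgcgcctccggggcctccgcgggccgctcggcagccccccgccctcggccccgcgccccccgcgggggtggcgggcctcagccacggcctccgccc
Dusp1: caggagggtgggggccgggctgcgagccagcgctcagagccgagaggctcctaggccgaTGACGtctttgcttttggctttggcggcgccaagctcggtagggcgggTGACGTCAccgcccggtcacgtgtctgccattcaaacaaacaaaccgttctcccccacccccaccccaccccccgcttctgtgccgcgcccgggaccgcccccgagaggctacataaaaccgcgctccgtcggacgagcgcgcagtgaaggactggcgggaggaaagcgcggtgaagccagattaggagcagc
Windows were used for 6 of the 10 genes, the other 2 being Egr2 and Egr4. None was at hand for Egr3 and Sik1, and none was used for Egr1 and Crem. Nr4a1, Nr4a2 and Nr4a3 each held 4 cores, a number reached by 0.231% of all 32851 RefSeq windows of this length. Dusp1 held 3 cores, of which those on opposite strands at one place overlap in the palindrome TGACGTCA, present in 1.79% of all windows. Egr4 held 2 cores in its window, and the Egr2 window with the most downstream start held 2 cores and a CArG box. The Egr2 window with the most upstream start held neither, and another Egr2 window held a CArG box and no core. At least 1 core was present in 20.8% and at least 2 in 5.01% of all windows, and a CArG box in 1.63%. None of these windows held the NR4A response element AAAGGTCA, which 1.51% of windows hold. These matches describe letters and not bound sites.

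**Figure D1:**
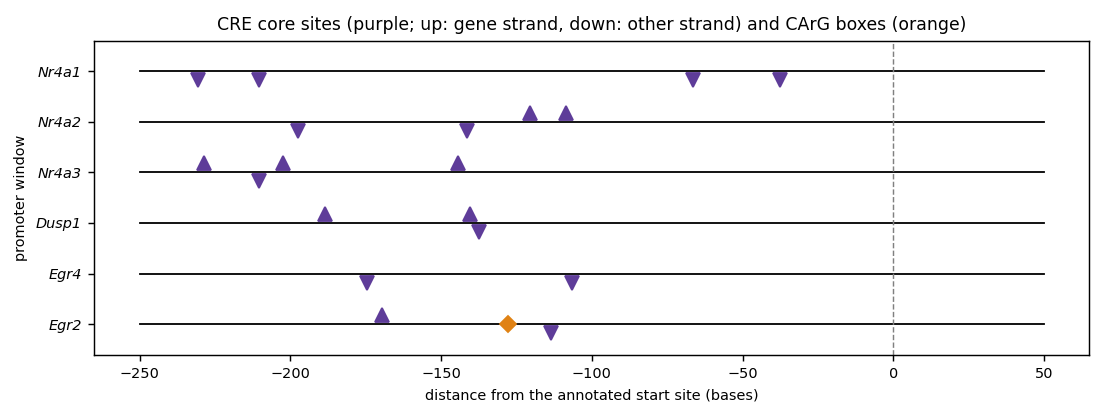
Positions of the CRE core TGACG (purple; upward on the strand of the gene, downward on the other strand) and of CArG boxes (orange) in the promoter windows, by distance from the annotated start in bases; for Egr2 the window of the most downstream start is drawn. The 3 NR4A windows hold 4 cores each, Dusp1 3, and Egr4 and Egr2 2 each.

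The libraries had 14787972 to 18740434 counts. Y-linked transcripts were at 0 in all 3 A74 libraries, at 256 and 297 CPM (read counts relative to library size, TMM-scaled) in light damage replicates 1 and 2, and at 336 and 352 CPM in control replicates 1 and 2. They were also at 0 in replicate 3 of light damage and of control, and Xist had at most 4 counts in any light damage library, so that light damage replicate 3 was high in neither. All A74 libraries were high in Xist (17227 to 18172 counts), where control libraries ranged from 1 to 22253 counts. Y-linked transcripts thus differed between the A74 group and 2 of the 3 libraries in each other group. Xist differed between the A74 group and all 3 light damage libraries. A fit with Y-linked transcripts as a term gives light damage replicate 3 the same value as the A74 libraries and so does not cover Xist. Replicate 3 of light damage and of control, at 0 where replicates 1 and 2 were not, cannot be a repeat library of the same RNA as either. Genes of anterior eye tissue summed to 138 CPM in A74 replicate 1 and 13.7 and 15.9 CPM in the other A74 libraries, to 12.7 to 238 CPM with light damage, and to 12.5 to 275 CPM in control. The summed level of lens genes was 762 CPM in A74 replicate 1, against at most 98.5 CPM in any other library. The 6 rod markers summed to 44550 to 47826 CPM with A74, 25441 to 37992 CPM with light damage and 46979 to 51359 CPM in control. The 6 amacrine markers summed to 870 to 905 CPM with A74, 906 to 999 CPM with light damage and 865 to 905 CPM in control. The 6 ganglion cell markers summed to 615 to 627 CPM with A74, 640 to 699 CPM with light damage and 536 to 614 CPM in control. The 7 markers of microglia and macrophages summed to 39.2 to 55.7 CPM with A74, 103 to 156 CPM with light damage and 37.55 to 42.95 CPM in control. Endothelial markers summed to 237 to 263 CPM with A74, 357 to 477 CPM with light damage and 230 to 248 CPM in control. Pigment epithelium markers summed to 470 to 513 CPM with A74, 650 to 742 CPM with light damage and 440 to 572 CPM in control, and Müller glia markers to 3869 to 4382, 4482 to 5000 and 3889 to 4471 CPM in these groups. Light damage libraries thus overlapped with neither other group in summed rod, amacrine, ganglion cell, microglial, endothelial, pigment epithelium and Müller glia markers. Rlbp1 is in both the pigment epithelium and the Müller glia list, so these sums are not separate. With light damage against control, 5 of 6 rod markers fell at an edgeR adjusted p under 0.05, beside 12.8% of all genes. Those that rose were 4 of 6 ganglion cell, 4 of 5 Müller glia and 5 of 7 microglial markers. Only 1 of 6 amacrine, 1 of 5 endothelial and 1 of 4 tested pigment epithelium markers rose, beside 13.0% of all genes. The amacrine gap was narrow, at 905.6 CPM in the lowest light damage library against 905.4 CPM in the highest A74 library. The 6 bipolar cell markers summed to 1359 to 1493 CPM with A74, 1598 to 1658 CPM with light damage and 1533 to 1611 CPM in control. In these markers the A74 libraries lay below both other groups, and light damage overlapped with control. The part of cell composition and sex in the results below was not tested. Between A74 and light damage, a difference that goes with Xist cannot be told apart from one that goes with A74. In whole retina a change in the number of cells of a type cannot be told apart from a change of RNA per cell.

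The genes fell into several patterns. Egr1 and Dusp1 were higher with light damage than in control, and the A74 libraries overlapped with light damage. Nr4a3 stood 7.91-fold higher with A74 than with light damage, and light damage overlapped with control. Sik1 and Egr3 were higher with A74 than with light damage in every library, and had their lowest levels in control. Levels below are CPM, and fold changes and adjusted p-values come from the quasi-likelihood test of edgeR, adjusted by Benjamini-Hochberg over the 17272 genes that passed the count filter, with a gene called at an adjusted p under 0.05. Light damage against control shares its light damage libraries, and A74 against control its A74 libraries, with the comparison that chose the genes, so that these tests are not independent of the choice.

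**Figure D2:**
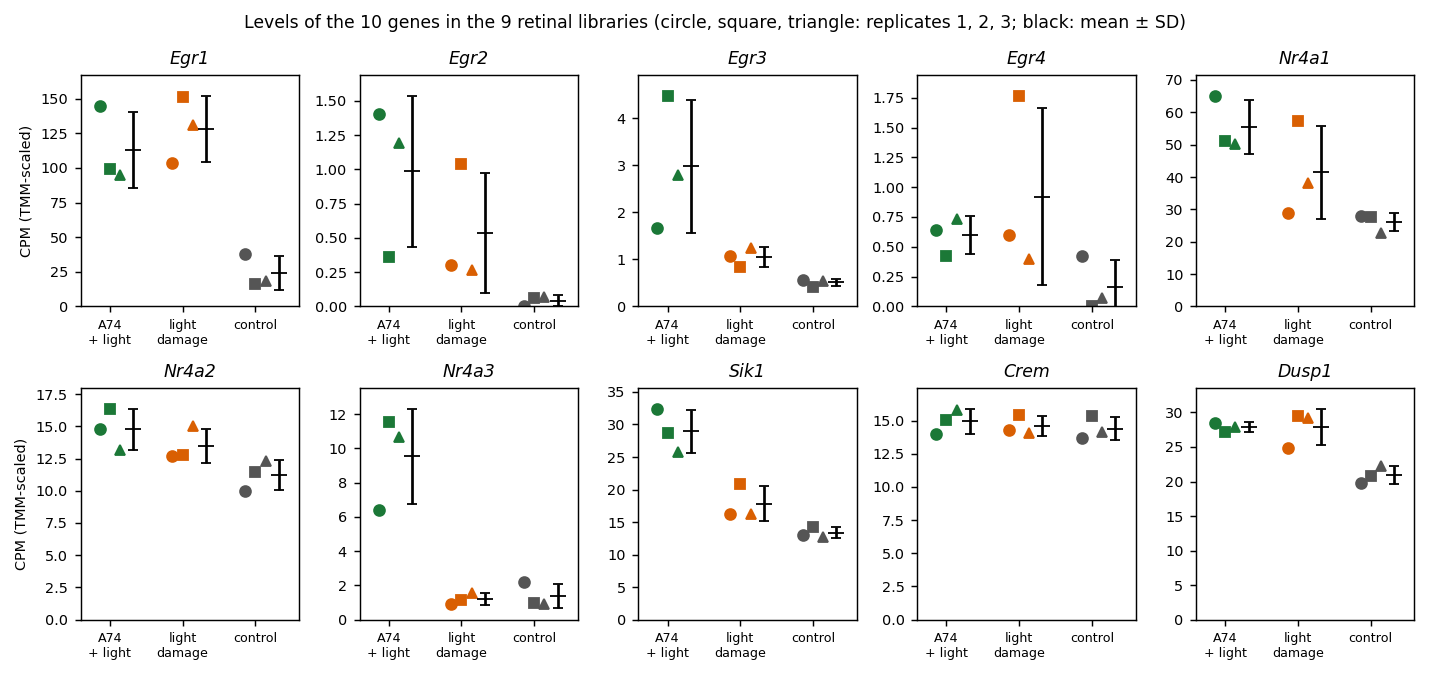
CPM (TMM-scaled, linear axes from 0) of the 10 genes in A74 with light damage, light damage and control, 1 point per library (circle, square and triangle for replicates 1, 2 and 3) with the mean and SD in black, cut at 0 for Egr4 in control. Nr4a3 stands at 6.38 to 11.5 CPM in the A74 libraries and at 0.902 to 2.19 CPM in the other 6, while Egr1 is at 94.8 CPM or more in all libraries with light and at 37.9 CPM or less in control.

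Egr1 had 144, 99.4 and 94.8 CPM with A74, 103, 151 and 131 CPM with light damage, and 37.9, 16.4 and 18.1 CPM in control. The A74 and light damage libraries overlapped, and all 6 stood above every control library. The log2 level of Egr1 rose with light damage by 2.42 over control (SE 0.37, edgeR adjusted p = 0.00546), a 5.36-fold difference, and was called in all 16 alternative settings (highest adjusted p 0.0240). A74 against control gave 2.24 (SE 0.37, edgeR adjusted p = 0.0695), which was not called, and the adjusted p lay between 2.45e-06 (DESeq2) and 0.233 over the alternatives. A74 against light damage gave -0.19 (SE 0.34). Control replicate 1 was the highest of the control libraries, and without it the light change was 2.90. In mean log2 CPM the light change was 2.32 between the libraries with Y-linked counts (2 against 2) and 2.85 between those without (1 against 1).

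Egr3, which shares its DNA site with Egr1, had 1.66, 4.49 and 2.79 CPM with A74, 1.08, 0.832 and 1.25 CPM with light damage, and 0.565, 0.422 and 0.539 CPM in control. The 3 groups did not overlap. The log2 difference between A74 and light damage was 1.51 (SE 0.35), or 2.85-fold, and ranged from 1.08 to 1.80 as single libraries were omitted, the lowest being without A74 replicate 2. Egr3 rose against control with A74, by 2.54 (SE 0.39, edgeR adjusted p = 0.00500). Without A74 replicate 2 the adjusted p was 0.0523, the only 1 of 15 alternatives with a value in which the call was lost. Light damage against control gave 1.04 (SE 0.43, edgeR adjusted p = 0.0899), and no alternative called it. The counts behind these levels were 26, 75 and 42 with A74, 18, 16 and 19 with light damage, and 8, 7 and 8 in control. All control counts were under the minimum of 10, so that Egr3 passed the count filter through the libraries with light and some difference from control was built in.

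Egr2, a regulator of myelination and of lymphoid and myeloid cells, was near the detection limit, with 22, 6 and 18 counts with A74, 5, 20 and 4 with light damage, and 0, 1 and 1 in control. Pooled counts gave a ratio to control of 22.1 with A74 (95% exact interval 5.78 to 188) and of 12.9 with light damage (3.27 to 112). These intervals cover counting error only, on reads without molecular identifiers, and not the spread between libraries. The edgeR test called Egr2 with light (edgeR adjusted p = 0.0179) and with A74 (edgeR adjusted p = 0.0401) against control. The call with light was lost without light damage replicate 2 (edgeR adjusted p = 0.127), and without control replicate 1, 2 or 3 (0.0716, 0.0536 and 0.0519). The call with A74 held in 8 of 15 alternatives. It was lost without A74 replicate 1 or 3 (0.0627 and 0.154), without any one control library (0.101 to 0.169), with Y-linked transcripts as a term (0.0608) and with the replicate block (0.0794). Egr2 passed the count filter through the libraries with light, so that some difference from control was built in. The A74 and light damage libraries overlapped, with a log2 difference of 0.81 (SE 0.56) that moved to 1.76 without light damage replicate 2.

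Egr4, known from neurons and germ cells, did not pass the count filter. It had 10, 7 and 11 counts with A74, 10, 34 and 6 with light damage, and 6, 0 and 1 in control. Its pooled ratio to control was 3.84 with A74 (95% exact interval 1.64 to 10.4) and 6.37 with light damage (2.87 to 16.7). One library, light damage replicate 2, held 34 of the 50 light damage counts. The light damage and control libraries overlapped, with 6 counts in both light damage replicate 3 and control replicate 1. A fit without the filter called Egr4 with light (log2 fold change 2.56, edgeR adjusted p = 0.000272) and not with A74 (1.89, edgeR adjusted p = 0.0958). That fit took Nr4a3 with A74 against control from an edgeR adjusted p of 0.00116 to 6.45e-28. Its p-values are thus not comparable with those of the filtered fit. Among the EGR genes, Egr1 made up 94.1% to 96.7% of the CPM per kilobase of exon with A74, 96.2% to 98.2% with light damage and 95.9% to 97.0% in control.

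Nr4a3 showed the widest separation between A74 and light damage. It had 6.38, 11.5 and 10.7 CPM with A74, 0.902, 1.14 and 1.57 CPM with light damage, and 2.19, 0.965 and 0.944 CPM in control. The lowest A74 library was above every other library, and light damage and control overlapped. The counts were 100, 193 and 161 with A74, 15, 22 and 24 with light damage, and 31, 16 and 14 in control. The log2 difference between A74 and light damage was 2.98 (SE 0.32), and it lay between 2.82 and 3.21 in all 16 alternatives. Nr4a3 rose by 2.81 with A74 against control (SE 0.32, edgeR adjusted p = 0.00116), 7.03-fold, and was called in all 16 alternatives (highest adjusted p 0.0263, with Y-linked transcripts as a term). Light damage against control gave -0.17 (SE 0.38, edgeR adjusted p = 0.792), was called in none of the 16 alternatives, and lay between -0.38 and 0.33. In log2 CPM, the mean of the 3 A74 libraries stood 2.46 above light damage replicate 3, the light damage library without Y-linked counts, and 3.13 above control replicate 3. Light damage replicate 3 had at most 4 Xist counts, against 17227 or more in each A74 library, so it does not match them in Xist. Within the libraries low in anterior tissue genes, 2 A74 libraries stood 2.73 above 1 light damage library. That library is again light damage replicate 3, so in the light damage group the anterior and Y-linked splits coincide and are not separate. Within those high in them, 1 A74 library stood 2.51 above 2 light damage libraries. Because every A74 library stood above all others, each split had to show A74 higher, and these values are a description only.

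Nr4a1, the most abundant member of its family here per exon length, had 65.2, 51.0 and 50.1 CPM with A74, 29.0, 57.3 and 38.3 CPM with light damage, and 27.8, 27.5 and 22.8 CPM in control. Light damage replicate 2 lay within the range of the A74 libraries, and light damage replicate 1 was close to control. The log2 difference between A74 and light damage was 0.41 (SE 0.25), moving to 0.72 without light damage replicate 2 and to 0.21 without light damage replicate 1. Against control, A74 gave 1.09 (SE 0.26, edgeR adjusted p = 0.14) and light damage 0.68 (SE 0.26, edgeR adjusted p = 0.115), neither of which was called. A74 against control was called in 4 of 16 alternatives, namely DESeq2 (adjusted p = 0.00601), a fit of these 2 groups alone (edgeR adjusted p = 0.000246), and edgeR without light damage replicate 1 (0.0469) or 2 (0.00814). Light damage against control was called in 1, without light damage replicate 1 (edgeR adjusted p = 0.0281).

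Nr4a2 varied within narrower limits, with 14.8, 16.3 and 13.1 CPM with A74, 12.7, 12.7 and 15.02 CPM with light damage, and 9.96, 11.5 and 12.3 CPM in control. Both groups with light stood above every control library and overlapped with each other. The log2 fold change against control was 0.39 with A74 (SE 0.12, edgeR adjusted p = 0.145) and 0.26 with light damage (SE 0.12, edgeR adjusted p = 0.138), and no alternative called either. A74 against light damage gave 0.13 (SE 0.12). Per kilobase of exon, Nr4a3 made up 4.57% to 9.41% of the NR4A family with A74, 0.973% to 1.77% with light damage and 1.49% to 3.40% in control, and Nr4a1 71.0% to 79.8%, 71.6% to 83.1% and 67.1% to 73.8%.

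Sik1 had 32.4, 28.7 and 25.8 CPM with A74, 16.3, 20.9 and 16.2 CPM with light damage, and 13.0, 14.3 and 12.7 CPM in control. The 3 groups did not overlap. Sik1 stood 0.70 higher with A74 than with light damage on the log2 scale (SE 0.12), or 1.62-fold, with a range of 0.61 to 0.83 as single libraries were omitted. Among libraries without Y-linked counts, the mean log2 CPM of the 3 A74 libraries was above that of the 1 light damage library by 0.83 for Sik1 and 1.07 for Egr3. That light damage library had at most 4 Xist counts, so it does not match the A74 libraries in Xist. The direction of both differences was fixed because the groups did not overlap for Sik1 or Egr3, so they are a description only. Against control Sik1 rose with A74 by 1.12 (SE 0.12, edgeR adjusted p = 0.000189), was called in all 16 alternatives (highest adjusted p 0.00334), and rose with light by 0.42 (SE 0.12, edgeR adjusted p = 0.0169). The call with light was lost without light damage replicate 2 (edgeR adjusted p = 0.109) and without control replicate 1 or 3 (0.0617 and 0.0623).

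Crem had 14.0, 15.1 and 15.8 CPM with A74, 14.3, 15.4 and 14.0 CPM with light damage, and 13.7, 15.3 and 14.2 CPM in control. All 3 groups overlapped. The log2 fold change against control was 0.05 with A74 (SE 0.10, edgeR adjusted p = 0.853) and 0.02 with light damage (SE 0.10, edgeR adjusted p = 0.914), and no alternative called it. One count per gene does not separate the ICER transcripts, which start at an internal promoter, from the other Crem transcripts.

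Dusp1 had 28.5, 27.1 and 28.0 CPM with A74, 24.8, 29.5 and 29.3 CPM with light damage, and 19.8, 20.8 and 22.3 CPM in control. The A74 libraries lay within the range of light damage, and both stood above control. Dusp1 rose with light by 0.41 (SE 0.09, edgeR adjusted p = 0.00326, called in all 16 alternatives) and with A74 by 0.41 (SE 0.09, edgeR adjusted p = 0.0425). The call with A74 held in 7 of 16 alternatives. It was lost without any one of the 3 control or 3 A74 libraries (edgeR adjusted p from 0.0528 to 0.191), without light damage replicate 2 (0.0563), and with Y-linked transcripts (0.153) or anterior tissue genes (0.0582) as a term. The log2 difference between A74 and light damage was -0.0019 (SE 0.09).

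**Figure D3:**
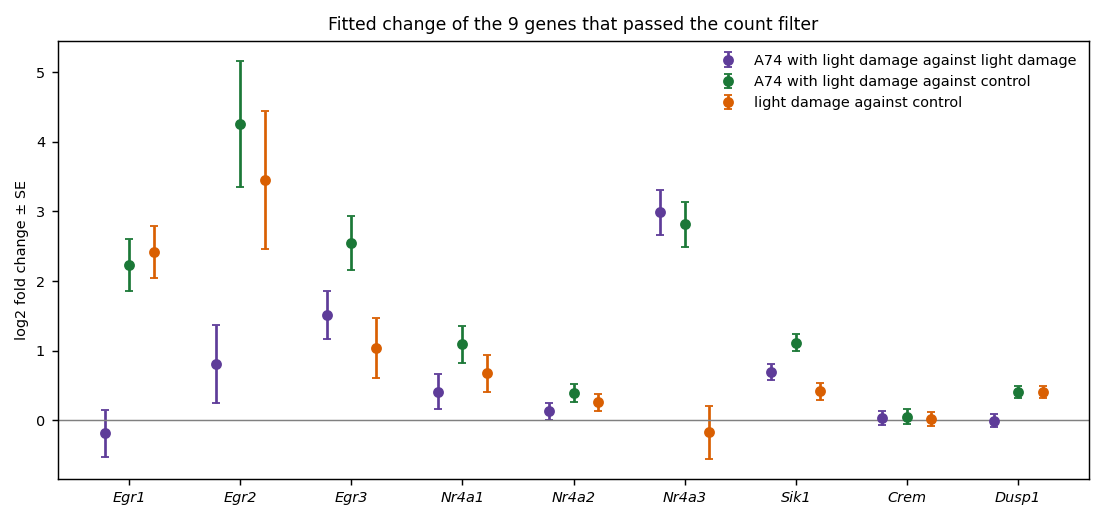
Fitted log2 fold changes with SE of the 9 genes that passed the count filter, for A74 with light damage against light damage (purple), A74 with light damage against control (green) and light damage against control (orange). Nr4a3 lies at 2.98 and 2.81 in the comparisons with A74 and at -0.17 with light damage alone, and Crem lies between 0.02 and 0.05 in all 3.

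Over the 9 genes tested, 4 rose with light damage against control (Egr1, Egr2, Sik1 and Dusp1) and none fell, beside 13.0% of all genes tested that rose and 12.8% that fell. With A74 against control, 5 rose (Egr2, Egr3, Nr4a3, Sik1 and Dusp1) and none fell, beside 0.591% of all genes that rose and 0.892% called in either direction. Every light damage library stood above every control library for 7 of the 9, beside 20.6% of all genes, and every A74 library above every control library for 8, beside 11.8%. Egr2 and Egr3 passed the filter through the libraries with light, so that these counts are in part fixed by it. Without both, 3 of 7 rose in each comparison, namely Egr1, Sik1 and Dusp1 with light damage and Nr4a3, Sik1 and Dusp1 with A74, and the groups did not overlap for 5 of 7 with light damage and 6 of 7 with A74. A fitted difference of at least 2-fold was reached by 3 of the 9 for light damage against control, beside 3.33% of all genes, and by 6 for A74 against control, beside 0.706%, or by 1 and 4 of the 7 without Egr2 and Egr3. The count called with light damage was 2 without control replicate 1, control replicate 3 or light damage replicate 2, and that with A74 was 3 without any one control or A74 library and with Y-linked transcripts as a term. For A74 against light damage, 3 of the 9 genes (Egr3, Nr4a3 and Sik1) had every A74 library above every light damage library, beside 17.5% of all genes, a share from which nothing is read because this comparison chose the genes. The median log2 fold change of the 9 genes was 0.42 for light damage against control, 0.41 for A74 against light damage and 1.12 for A74 against control, where that of all genes was 0.01, -0.0003 and -0.0024. These counts and medians leave out Egr4 and describe genes chosen with the results known.

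Replicates within a group differed in a way that several of the genes shared. Light damage replicate 2 was the highest light damage library for 7 of the 10 genes, and light damage replicate 1 for none of them and the lowest for 5. In the A74 group, replicate 1 was the highest for 5 genes, replicate 2 for 3 and replicate 3 for 2. Egr1, Egr2, Nr4a1, Sik1 and Dusp1 were highest in A74 replicate 1 of their group, and Egr3, Nr4a3 and Crem were lowest in it.

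**Figure D4:**
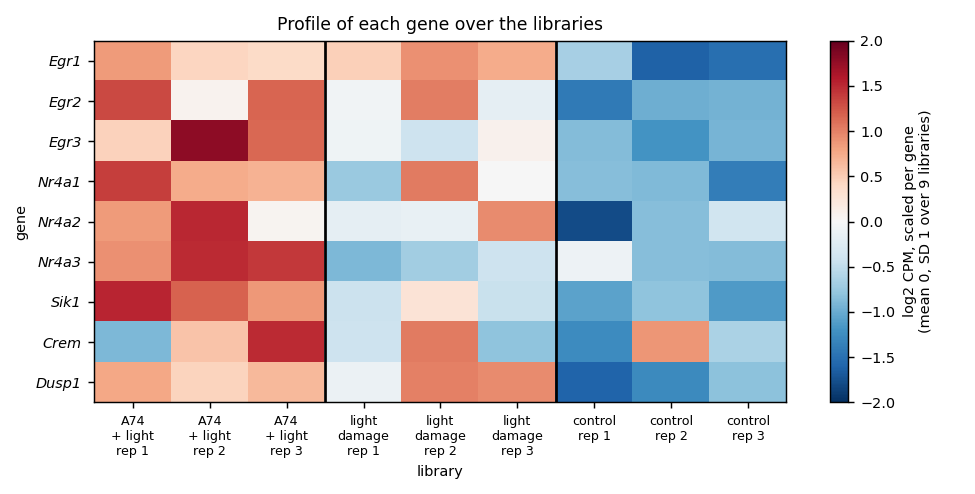
Log2 CPM of the 9 tested genes in each library, scaled per gene to mean 0 and SD 1 over the 9 libraries, with columns for A74 with light damage, light damage and control, replicates 1 to 3 in each. All of the genes but Crem are above their mean in all 3 A74 libraries, and light damage replicate 2 stands out from the other light damage libraries for Nr4a1, Egr2 and Crem.

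Other immediate-early genes were examined from a list of 19 genes outside the 10, all of them tested. With light damage against control 15 rose and none fell, with a median log2 fold change of 0.94, beside 13.0% higher and 12.8% lower among all genes. Junb, an AP-1 subunit gene, rose by 1.41 (edgeR adjusted p = 1.99e-05), and Fosb by 1.46 (edgeR adjusted p = 8.19e-05). With A74 against light damage 2 rose and 6 fell, with a median of -0.26, beside 9.07% higher and 9.19% lower among all genes. Ccn1, a matricellular protein gene, fell by 1.14 (edgeR adjusted p = 0.00532, and 0.118 with Y-linked transcripts as a term). The 2 that rose were Jun, by 0.35, and Atf3, by 0.41 (edgeR adjusted p = 0.0155 and 0.0356). With A74 against control 6 rose and none fell, with a median of 0.64, beside 0.591% higher and 0.301% lower among all genes. Atf3, a stress-induced member of the ATF and CREB family, had 15.4, 17.9 and 19.2 CPM with A74, 12.4, 13.8 and 13.4 CPM with light damage, and 8.76, 6.94 and 6.34 CPM in control. It rose with A74 against control by 1.25 (SE 0.13, edgeR adjusted p = 0.000189), as did Jun by 0.64 and Junb by 0.97 (edgeR adjusted p = 0.00408 and 0.00461), all 3 in every alternative. Over the alternatives these counts ran from 13 to 17 higher for light damage against control, from 0 to 2 higher and 1 to 6 lower for A74 against light damage, and from 3 to 9 higher for A74 against control.

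**Figure D5:**
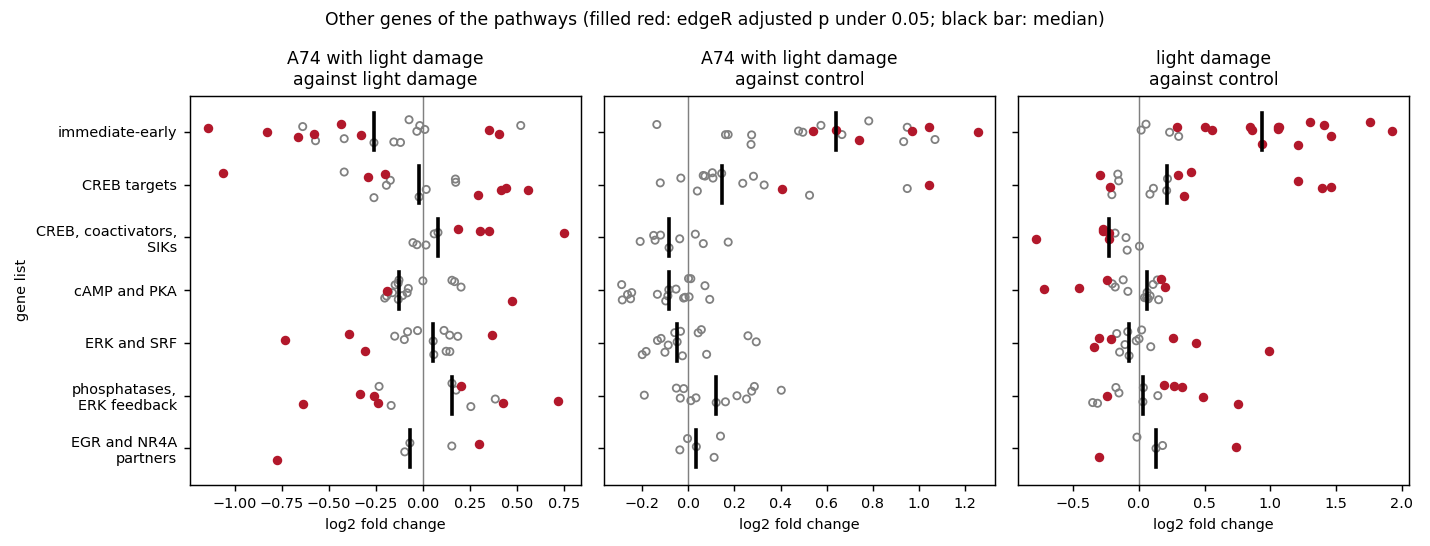
Log2 fold change of each tested gene in 7 lists of pathway genes outside the 10, in A74 with light damage against light damage, A74 with light damage against control and light damage against control; filled red points have an edgeR adjusted p under 0.05 and black bars are medians. The median of the immediate-early list is 0.94 for light damage against control and -0.26 for A74 against light damage.

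Of 16 listed CREB target genes outside the 10, 15 were tested. Fos and Fosb are also in the immediate-early list. With light damage against control 6 rose and 2 fell (median 0.21), with A74 against light damage 4 rose and 3 fell (median -0.02), and with A74 against control 2 rose and none fell (median 0.14). Among all genes, 25.8%, 18.3% and 0.892% were called in either direction in these comparisons in turn. Per1, a clock gene that also answers to cAMP, had 95.6, 112 and 112 CPM with A74, 67.6, 72.0 and 77.2 CPM with light damage, and 85.8, 78.3 and 77.1 CPM in control. Every A74 library stood above all others, and Per1 was higher with A74 than with light damage by 0.56 (SE 0.07, edgeR adjusted p = 0.000152), called in all 16 alternatives. Against control it rose by 0.41 with A74 (edgeR adjusted p = 0.0156), a call that 5 of 16 alternatives lost, namely those without control replicate 2 or 3 or A74 replicate 2 or 3 and with Y-linked transcripts as a term (highest adjusted p 0.126). Gadd45b, a stress and demethylation gene, was lower with A74 than with light damage, at -1.06 on the log2 scale (edgeR adjusted p = 0.00271, and 0.0737 with Y-linked transcripts as a term).

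Counts in the remaining lists are read against all genes, of which 25.8% were called for light damage against control, 18.3% for A74 against light damage and 0.892% for A74 against control, so that a list of this size with no call in the last is no result about it. Of 9 genes for CREB, its coactivators and the other salt-inducible kinases, 5 fell with light damage against control (Creb1, Crtc3, Ep300, Sik2 and Sik3, median -0.22). With A74 against light damage 4 rose (median 0.08), and none was called with A74 against control. The CRTC genes Crtc2 and Crtc3, coactivators that SIK kinases hold back, rose with A74 against light damage by 0.35 and 0.30 (edgeR adjusted p = 0.0022 and 0.00397), in every alternative. Crtc3 fell with light by 0.27 (edgeR adjusted p = 0.00471), and its log2 fold change with A74 against control was 0.03 (edgeR adjusted p = 0.860). The other calls among the 4 were of Sik2 and Ep300, which held in 5 and 6 of 16 alternatives, and Creb1 was called for A74 against control in 2. Among 17 tested genes of 18 for cAMP production and protein kinase A, 2 rose and 3 fell with light damage, 1 rose and 1 fell with A74 against light damage, and none was called with A74 against control. These shares are near or under those of all genes. The adenylyl cyclase gene Adcy6 fell with light by 0.72 and rose with A74 against light damage by 0.47 (edgeR adjusted p = 6.76e-05 and 0.0021), in every alternative.

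In the ERK branch, 3 of 15 genes of the ERK cascade and serum response factor rose and 3 fell with light damage against control. With A74 against light damage 1 rose and 3 fell, and none was called with A74 against control. None of these counts is read as a result about the list, given the shares over all genes. Of 13 tested genes among 14 other dual-specificity phosphatases and ERK feedback inhibitors, 5 rose and 1 fell with light damage, 3 rose and 4 fell with A74 against light damage, and none was called with A74 against control. Dusp6, an ERK phosphatase gene that itself marks ERK signalling, had 16.3, 15.01 and 15.01 CPM with A74, 25.8, 22.4 and 23.9 CPM with light damage, and 15.9, 14.7 and 12.0 CPM in control. It rose with light by 0.76 and fell with A74 against light damage by 0.64 (edgeR adjusted p = 0.000183 and 0.00119), in every alternative, where its relative Dusp1 differed by -0.0019 between A74 and light damage. Dusp7 and Dusp14 rose with A74 against light damage by 0.43 and 0.72 (edgeR adjusted p = 0.000734 and 0.00089).

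Nab2, an EGR-induced gene whose product binds EGR1 and represses its activity, had 5.36, 7.84 and 7.504 CPM with A74, 12.6, 11.3 and 11.5 CPM with light damage, and 7.42, 6.76 and 7.08 CPM in control. It rose with light by 0.74 and fell with A74 against light damage by 0.78 (edgeR adjusted p = 0.00178 and 0.00221), in every alternative, while the levels of Egr1 in the same A74 libraries overlapped with light damage. Rxra, a gene for the retinoid X receptor that pairs with NR4A1 and NR4A2, was the other partner called of 5, and it fell with light by 0.30 and rose with A74 against light damage by 0.30 (edgeR adjusted p = 0.0136 and 0.0201). Each of these calls of Rxra was lost in some alternatives, the first without control replicate 1 or 2 or light damage replicate 1 (highest adjusted p 0.0708), and the second without light damage replicate 1 or 2 or A74 replicate 1 or 2 and with Y-linked transcripts as a term (highest adjusted p 0.124). None of the 5 partners was called with A74 against control.

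The genes whose profile was most like the average scaled profile of the 9 tested genes over the 9 libraries were Eef1d (Pearson r = 0.98), Bud31 (0.97), Polr2c (0.97), Cox7a2l (0.97) and Sf3b4 (0.97). They encode a translation elongation subunit, splicing proteins (Bud31 and Sf3b4), an RNA polymerase II subunit and a respiratory chain assembly factor, and their log2 fold changes with A74 against control were between 0.18 and 0.34. These correlations are a description over libraries that share their groups and scaling. Among the tested genes themselves, Sik1 was nearest to the average (0.95) and Crem farthest from it (0.43).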

How the data were processed

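The 9 libraries were grouped by the sample titles. One gene-by-library table of raw, whole-number read counts was deposited by the authors; its column totals differ. The submitters' processing notes list RSEM 1.3.1, Bowtie2, DESeq2 1.4.5 and the build GRCm39 without saying what each did. Strand use and the annotation release: not given in the sources used here. Whether reads of overlapping genes were told apart is therefore not known.

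Genes with a count of at least 10 in enough libraries (filterByExpr) were kept, 17272 in all, scaled by TMM and tested in 1 fit of all 9 libraries without covariates with edgeR 4.0.16 (robust quasi-likelihood) in R 4.3.3, with Benjamini-Hochberg adjustment. The SE is the log2 fold change over the square root of F. Log2 CPM used a prior count of 2. The test was tried on simulated counts, which had none of the Xist, Y-linked or anterior tissue differences of these libraries. The members, lists and covariates were chosen with earlier results of these data known. The text names the 10 members, a part of the up to 3 genes per list and comparison with the smallest adjusted p, and the 5 genes most like the members. Exon lengths are GENCODE M21 on GRCm38, used for lengths only.

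Alternatives were DESeq2 size factors, no count filter, DESeq2 1.42.0, only the groups compared, the replicate block, Y-linked transcripts or anterior tissue genes (log2 of summed CPM plus 1) as a term, and leaving out each library. The correlation of deviations between same-numbered libraries was over 0.1 in all 3 pairs of light damage and control (0.116 to 0.311), which was the criterion for treating numbers as pairs, and not in all pairs of A74 with light damage (-0.0672 to 0.128) or control (-0.0925 to 0.137). The pairing is uncertain. The numbers are those of the titles, the library names of the light damage and A74 groups carry other numbers, and 4 of 9 libraries correlated best with their own number. No libraries of a group agreed within sampling noise.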

Additional observations from a re-analysis of the deposited data

How the results depend on the processing

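Each result was recomputed under 16 alternatives. For light damage against control, 4 members were called, and 4 or 5 under the 7 settings that keep all libraries, 4 with the replicate block among them, and 2 to 5 when 1 library was left out. For A74 against control, 5 members were called, 3 with Y-linked transcripts as a term, 4 with the replicate block, in which Egr2 was lost, 5 by DESeq2, which gave no adjusted p for Egr2 and Egr3, and 3 to 6 when 1 library was left out. The median log2 fold change of the members for A74 against light damage was 0.41, 0.57 with Y-linked transcripts as a term, 0.50 with anterior tissue genes as a term, and 0.21 to 0.72 when 1 library was left out. Of the pathway genes, 45 were called for light damage against control (32 to 51 with 1 library left out), 34 for A74 against light damage (13 with Y-linked transcripts as a term, 15 to 40 with 1 library left out, 29 with the replicate block) and 7 for A74 against control (15 without the count filter, 13 in a fit of these groups alone, 3 to 13 with 1 library left out). A fit without a library has fewer samples, and otherwise the cause was not tested. No called member changed sign. The block moved no other count of members or pathway genes by over 1.5 times. Over all genes, A74 against light damage called 3153 genes, and 803 with Y-linked transcripts as a term. The low counts of Egr2, Egr3 and Egr4 limit what can be said of them.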
